A study of Arabidopsis thaliana with 2 samples.

Results

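Of 778 regions of the Arabidopsis thaliana genome listed as peaks of the transcription factor SOG1, 302 (38.8%) were assigned by the authors to exactly 2 genes. These were found by collapsing the deposited list to unique chromosome, start and end and by counting the genes named at each region. A further 35 peaks named no gene, 199 named 1 gene and 242 named 3 or more. The 302 peaks held 30271 of the 78249 reads that lay in peaks (38.7%) and named 586 of the 1513 distinct loci of the list.

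The list came from chromatin immunoprecipitation followed by sequencing (ChIP-seq) with an anti-Myc antibody, in which DNA fragments that come down with a tagged protein are sequenced. The library was made from whole 2-week-old Col-0 plants that carried SOG1 fused to Myc under the SOG1 promoter (ProSOG:SOG1-Myc), kept in liquid MS under constant light. These plants had received 15 µM zeocin, a drug that breaks DNA, for 2 h. The series also has a library of 2-week-old Col-0 plants without the tag, labelled mock; its values were not analysed here. By the labels, genotype and treatment both differed between the libraries, so tag and drug cannot be told apart. The treatment text of the untagged sample names zeocin, but its label was followed. Each group had 1 library, so no value of a peak has a replicate error and no test was made. Whole plants mix cell types, so more cells bound and more binding per cell cannot be told apart. The labels name no number of pooled plants and no transgenic line.

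SOG1, short for SUPPRESSOR OF GAMMA RESPONSE 1, belongs to the NAC family of transcription factors. It is phosphorylated after DNA breaks and switches on genes of repair, cell-cycle arrest and cell death. It stands in plants about where p53 stands in animals. Genes of Arabidopsis lie close together, and many neighbours are transcribed away from a shared stretch of DNA. A binding region in such a stretch lies beside a pair of genes, and the position of a peak alone does not tell which gene of a pair, if either, responds to the factor.

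The authors give each peak a read count, a length, the offset of its summit from its start and a fold enrichment. The last is a ratio to a background that no source used here describes. Their false discovery rate (FDR) for the 302 peaks ran from 0.116 to 0.5 with a median of 0.147, and it was highest at the peak with most reads, that of AT3G45730 and AT3G45740. The FDR did not change steadily with the authors' score. It was 0.5 at score rank 2 of the whole list, 0.125 at rank 16 and 0.16 at rank 25, so it is not a q-value. Read as a rate over the peaks with at least the same score, 0.147 would allow that share of them to be false. The depth of the whole library is unknown, so reads in peaks are the only counts. By these values the peaks that name 2 genes resembled the others. Their fold enrichment ran from 2.49 to 17.1 with a median of 4.39 (quartiles 3.70 and 5.18). The median was 4.81 for peaks that name no gene, 4.35 for those with 1 gene and 4.25 for those with 3 or more. Their reads ran from 42 to 572 with a median of 75.5 (quartiles 62 and 110). The medians of the other classes were 73, 74 and 81 reads in order of rising gene number.

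Length rose slightly with the number of genes named. The median was 792 bp for no gene, 809 bp for 1 gene, 840 bp for 2 genes and 867.5 bp for 3 or more. Among the 302 peaks, length ran from 526 to 3293 bp (quartiles 734 and 1095). Reads per kb of peak gave medians of 90.2, 87.8, 87.7 and 89.9 in the same order, so the small rise in reads went with the rise in length. Across the 302 peaks, reads and length were ordered almost alike (Spearman's rho 0.95), whereas fold enrichment and length were not (0.06). These are descriptions over peaks of 1 library, in which reads and length come from the same fragments.

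The summit lay near the middle of the peak in every class. Its median offset was 416 bp from the start for peaks with 2 genes, against 378 bp, 390 bp and 426 bp for no gene, 1 gene and 3 or more. Divided by length, so that 0 is the start and 1 the end of the peak, the median was 0.517 for 2 genes (quartiles 0.445 and 0.597; range 0.095 to 0.860). The other medians were 0.501, 0.494 and 0.527. The summit of 21 of the 302 peaks (6.95%) lay outside the span from 0.25 to 0.75, 10 towards the start and 11 towards the end.

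**Figure D1:**
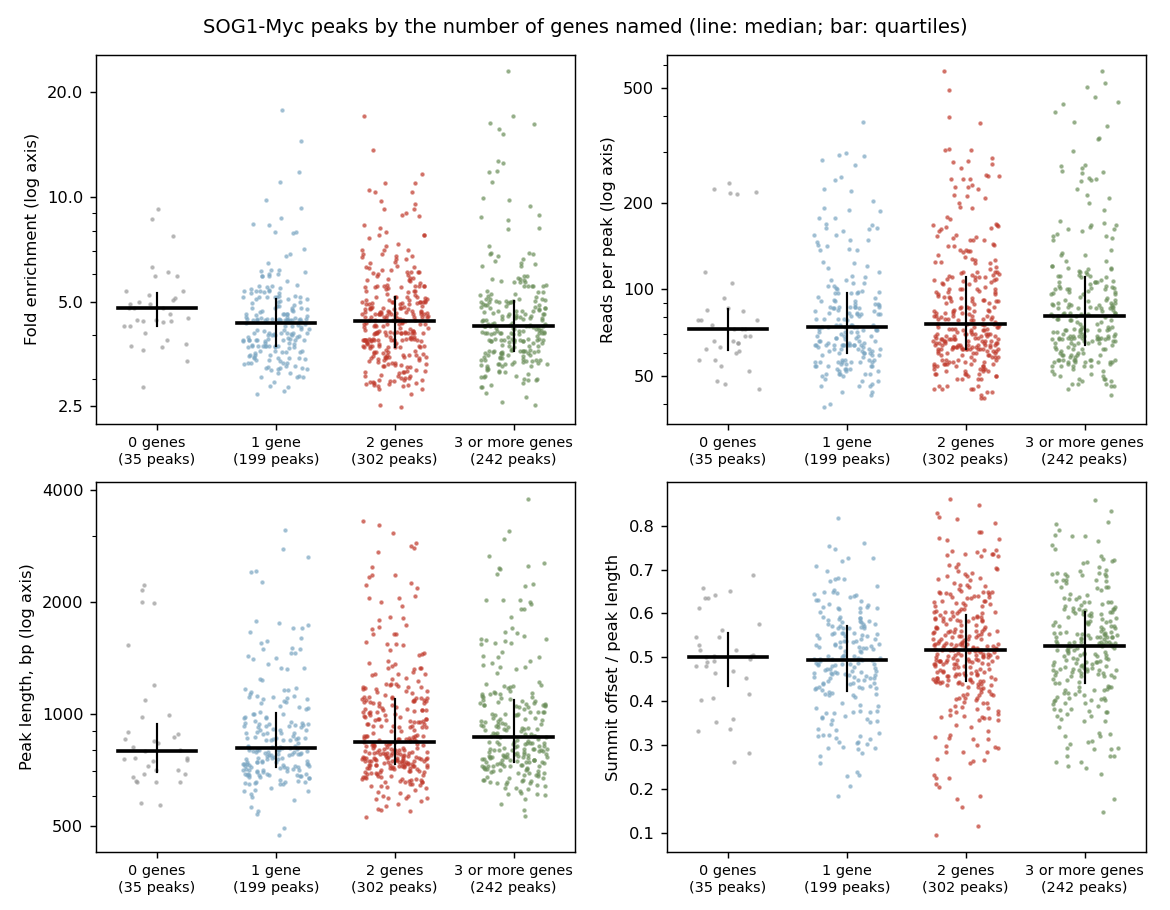
Fold enrichment, reads per peak, peak length in bp (all on log axes) and relative summit position of the 778 peaks, grouped by the number of genes the authors named; each point is a peak, the horizontal line the median and the vertical bar the quartiles. The 302 peaks with 2 genes overlap the other classes over nearly the whole range of each value, with medians of 4.39-fold, 75.5 reads, 840 bp and 0.517.

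Among the strongest peaks of the list, the share of pairs lay below and above 38.8% depending on how many peaks were taken. By fold enrichment, 2 of the top 10, 8 of the top 25 and 45 of the top 100 named 2 genes. The last share was 45% (exact 95% binomial interval 35.0 to 55.3, which covers counting error only). At 10-fold or more stood 8 of the 302 peaks (2.65%), beside 4 of 199 with 1 gene and 11 of 242 with 3 or more. Below 3-fold stood 20 (6.62%), beside 5 of 199 and 10 of 242. By length, 6 of the 10 longest (exact interval 26.2 to 87.8%), 11 of the 25 longest and 37 of the 100 longest peaks named 2 genes. The pairs were spread over all 5 chromosomes, from 35.5% of the peaks of chromosome 1 to 42.1% of those of chromosome 5. Another peak lay within 5000 bp of 55 of the 302 (18.2%), against 28.6% of those with no gene, 24.1% of those with 1 gene and 18.2% of those with 3 or more.

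The highest pair peak, on chromosome 5 from 4672491 to 4673589 (all positions are on build TAIR10), named ANAC085 (AT5G14490), a NAC factor closely related to SOG1, together with the tRNA gene AT5G14495. Its fold enrichment of 17.1 came from 226 reads over 1099 bp and ranked 3 in the whole list. RAD17 (AT5G66130), which loads the checkpoint clamp at damaged DNA, was named with AT5G66120 at 26433459 to 26434678 of the same chromosome. That peak stood at 13.7-fold with 241 reads. SMR4 (AT5G02220), a small inhibitor of cyclin-dependent kinases, was paired with AT5G02210 at 11.0-fold and 250 reads (chromosome 5, 441680 to 443316). TK1a (AT3G07800), a thymidine kinase that recycles thymidine for DNA synthesis, shared a 10.3-fold peak with AT3G07810 (chromosome 3, 2488759 to 2491963). With 3204 bp and 398 reads this was the second longest of the 302 peaks. Each of these 4 list genes thus stood beside a partner that is on none of the gene lists.

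The other pairs of the top 12 held no gene of the lists, which do not cover every repair gene. Among them, loci without a symbol in the gene table are given no role here, except AT5G10980 and AT5G10990. A locus left without a role may still act in repair. CLPR1 (AT1G49970), a subunit of the plastid Clp protease, and AT1G49980 shared an 11.6-fold peak of 192 reads on chromosome 1, 18507543 to 18508627. SEN2 (AT5G60230), a subunit of the tRNA-splicing endonuclease, and AT5G60250 shared 10.9-fold and 306 reads at chromosome 5, 24251339 to 24252817. FdC2 (AT1G32550), a ferredoxin-like protein of plastids, was named with AT1G32570 at 10.4-fold and 153 reads. AT5G49100 and AT5G49110, neither with a gene symbol, shared a peak of 10.5-fold and 149 reads. These values stood between those of RAD17 and TK1a.

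GRF9 (AT2G45480), a growth-regulating transcription factor, and AT2G45460 had 9.77-fold and 230 reads. COL2 (AT3G02380), a CONSTANS-like zinc finger protein, and AT3G02400 had 9.56-fold and 167 reads. AT5G10980, which encodes the replacement histone H3.3, was paired at 9.26-fold with the auxin-induced SAUR69 (AT5G10990) over a peak of 1992 bp and 279 reads. AT1G20750 and AT1G20760 closed the 12 at 9.26-fold and 142 reads.

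**Figure D2:**
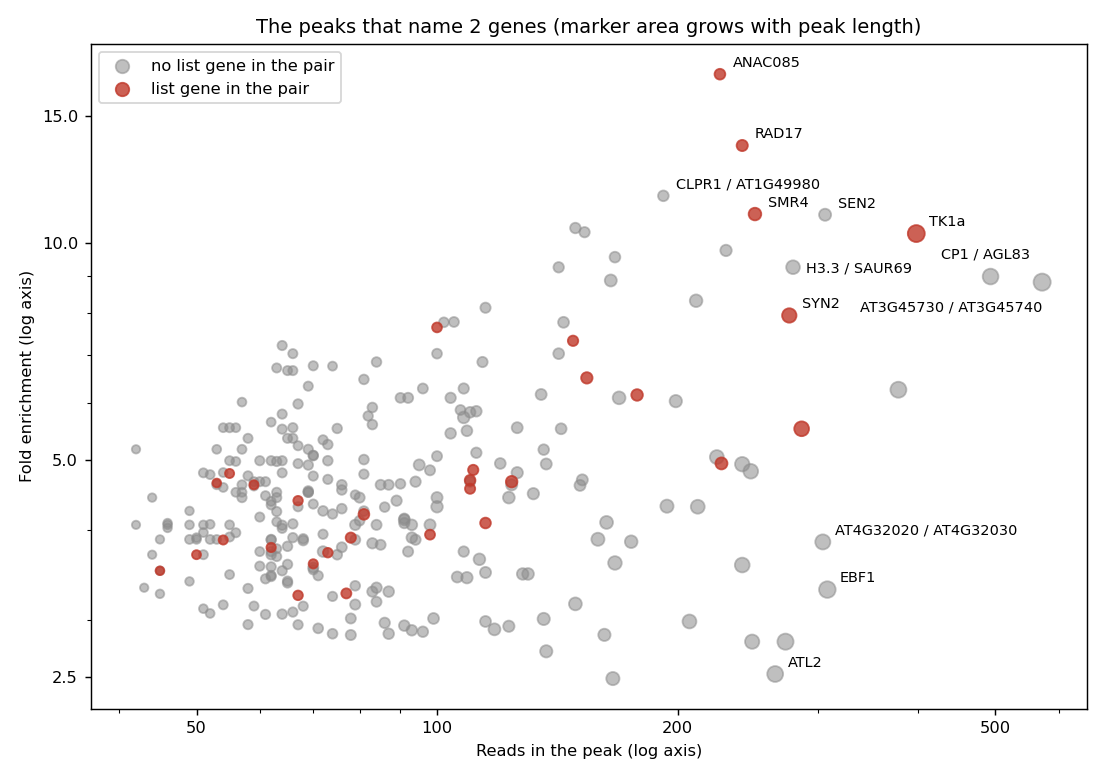
Fold enrichment against reads for each of the 302 peaks that name 2 genes, both on log axes, with marker area growing with peak length; red markers are the 31 peaks that name a gene of the lists. ANAC085 stands highest at 17.1-fold with 226 reads, whereas the peak with most reads, at AT3G45730 and AT3G45740, has 8.83-fold, and long peaks such as those of EBF1 and ATL2 lie low.

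The peaks with most reads were a partly different set. AT3G45730 and AT3G45740 shared 572 reads, 3293 bp and 8.83-fold on chromosome 3, 16787965 to 16791257, the longest of the pairs. CP1 (AT5G49480), a calcium-binding protein, and the MADS-box gene AGL83 (AT5G49490) shared 493 reads, 2718 bp and 8.99-fold. TK1a followed with 398 reads, and AT5G25280 with AT5G25290 had 378 reads over 2821 bp at 6.26-fold. The fifth was EBF1 (AT2G25490), an F-box protein that removes the ethylene factor EIN3, with AT2G25482. It had 308 reads over 3066 bp at only 3.31-fold. High reads therefore stood at both strong and weak fold values.

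The pairs with the lowest fold enrichment were not those with few reads. GAE1 (AT4G30440), which makes a sugar precursor of pectin, and the tetraspanin TET9 (AT4G30430) had 2.49-fold with 166 reads over 1822 bp. ATL2 (AT3G16720), a RING-type ubiquitin ligase, and AT3G16712 had 2.53-fold with 265 reads over 2781 bp. XTH28 (AT1G14720), a cell-wall xyloglucan enzyme, and AT1G14710 had 2.72-fold with 137 reads over 1537 bp. All 3 were longer than the upper quartile of 1095 bp. At the other end of length, ABCI11 and AT5G14120 shared 526 bp with 42 reads at 4.07-fold. RKP and AT2G22030 shared 546 bp with 42 reads at 5.18-fold, and chr31 and NTMC2T2.1 shared 550 bp with 44 reads at 3.70-fold. These short peaks lay on both sides of the median of 4.39-fold. Within 761 to 976 bp, where 92 of the peaks lay, the median fold was 4.18 for 2 genes, beside 4.11 for 1 gene and 4.07 for 3 or more.

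Summits nearest an end lay mostly in long peaks. The XTH28 peak had its summit at 0.095 of its length. RAV2 (AT1G68840), a transcription factor that represses flowering, and AT1G68845 had it at 0.116 in a peak of 2358 bp, 241 reads and 3.58-fold. EBF1 followed at 0.160. Towards the end stood PMZ (AT3G28210), a stress-linked zinc finger protein, with AT3G28220 at 0.860 of 1204 bp. ERF4 (AT3G15210), an ERF-family repressor, with AT3G15200 stood at 0.848 of 2068 bp, and EXL2 (AT5G64260) with AT5G64270 at 0.828 of 1950 bp. In each of these 6 peaks the length exceeded the median of 840 bp.

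The pairs were read by role with 10 lists of genes, and 31 of the 302 peaks (10.3%) named a gene of them. Counted by gene, 31 of the 235 list members (13.2%; exact 95% binomial interval 9.14 to 18.2) were named at a peak with 2 genes. As background, 1.99% of the 27432 protein-coding nuclear loci of the gene table were. List genes were also named at peaks with 3 or more genes, such as 3 of 11 CDK inhibitors and 5 of 67 WRKY genes. Of the 27432 loci, 673 were named at such peaks. The contrast was therefore not shown to be particular to pairs. Since SOG1 targets are known and the peak list was in view when the lists were written, the counts describe and do not test. The peaks with a list gene had a median of 4.65-fold, 100 reads and 978 bp. Those without had 4.34-fold, 74 reads and 830 bp. Both groups of peaks had quartiles that overlapped in each value.

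Recombination and strand-break repair had the most members at pairs, 9 of 38 (23.7%), with a median of 5.53-fold. SYN2 (AT5G40840), a subunit of the cohesin ring, shared 7.94-fold and 276 reads with UPM1 (AT5G40850), an enzyme of siroheme synthesis. RPA1E (AT4G19130), a large subunit of the single-strand-binding complex RPA, and AT4G19140 shared 7.64-fold from 100 reads. Both stood above the upper quartile of 5.18-fold.

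XRI1 (AT5G48720), needed for meiosis and induced by X-rays, had 5.53-fold with AT5G48730. MND1 (AT4G29170), a protein of meiotic recombination, had 4.57-fold with RHS16, and GMI1 (AT5G24280), a gamma-induced protein related to SMC proteins, had 4.39-fold with the starch synthase SS1. RPA1A with AT2G06500 (3.70-fold, 50 reads) and MHF2, a histone-fold partner of the Fanconi helicase, with AT1G78780 (3.59-fold, 70 reads) lay near the lower quartile. The repair genes at pairs thus ran from weak to strong. Of the remaining members, 26 were named at no peak, and BRCA1, COM1 and RPA1C were named only at peaks with other gene numbers.

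RNR1 (AT2G21790), the large subunit of ribonucleotide reductase, and EME1A (AT2G21800), a subunit of a structure-cutting nuclease, formed the only pair with list genes on both sides. They are direct neighbours in the gene order, and their shared peak had 6.16-fold and 178 reads over 1327 bp (chromosome 2, 9292509 to 9293836). Replication and nucleotide supply had 4 of 24 members at pairs, RNR1 and TK1a among them. MCM3, a subunit of the replicative helicase, had 3.51-fold from 45 reads with AT5G46270. ZEU1, a thymidylate kinase, had 3.72-fold with TRP1, a telomere-binding protein. Genes that supply nucleotides therefore stood at 10.3-fold, 6.16-fold and 3.72-fold.

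Checkpoint genes had 1 of 7 members at a pair, RAD17, and the CDK inhibitors 1 of 11, SMR4. End joining and PARP had none of 10; PARP1 and PARP2 were named at peaks with 3 genes. Damage-linked transcription factors had 2 of 13, ANAC085 and ANAC103 (AT5G64060). The ANAC103 peak, shared with ERS, a glutamate-tRNA synthetase, had 4.09-fold and 115 reads, below the median of pairs. The G2/M list had 2 of 21: HBT, a subunit of the anaphase-promoting complex, at 3.94-fold with AT2G20010, and the spindle checkpoint protein BUB3.1 at both 4.85-fold and 6.50-fold. Of the 20 housekeeping and photosynthesis genes, 1 was at a pair, the tubulin TUB9 with the fatty acid hydroxylase FAH2 at 3.88-fold from 54 reads. At peaks of any gene number, 5 of the 20 were named. The same count was 12 of 38 for recombination, 6 of 24 for replication and 15 of 67 for WRKY genes. Over all protein-coding loci it was 1368 of 27432. The housekeeping and photosynthesis list thus also stood above this background, and not below the replication list.

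WRKY transcription factors, a plant family prominent in defence, had 7 of 67 members at pairs (10.4%). WRKY25 with ATCHX13 led at 4.95-fold and 227 reads. WRKY2 with AT5G56260 (4.65-fold, 53 reads), WRKY50 with AT5G26180 (4.62-fold, 59 reads), WRKY18 with AT4G31805 (4.21-fold, 81 reads) and WRKY53 with AT4G23840 (3.91-fold, 78 reads) followed. WRKY75 with AT5G13100 had 3.78-fold and WRKY7 with ACBP3, an acyl-CoA-binding protein, 3.27-fold. None of the 7 reached the upper quartile of pairs. Other immunity genes had 4 of 24: RIN4, a membrane-bound target of bacterial effectors, at 4.79-fold with AT3G25080, MLO2, a mildew susceptibility protein, at 4.69-fold with AT1G11320, SAG101, a partner of EDS1, at 4.67-fold with AT5G14900, and PEPR1, a receptor of danger peptides, at 3.25-fold with AT1G73090. RIN4, MLO2 and SAG101 thus stood close together and PEPR1 below the lower quartile of 3.70-fold.

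**Figure D3:**
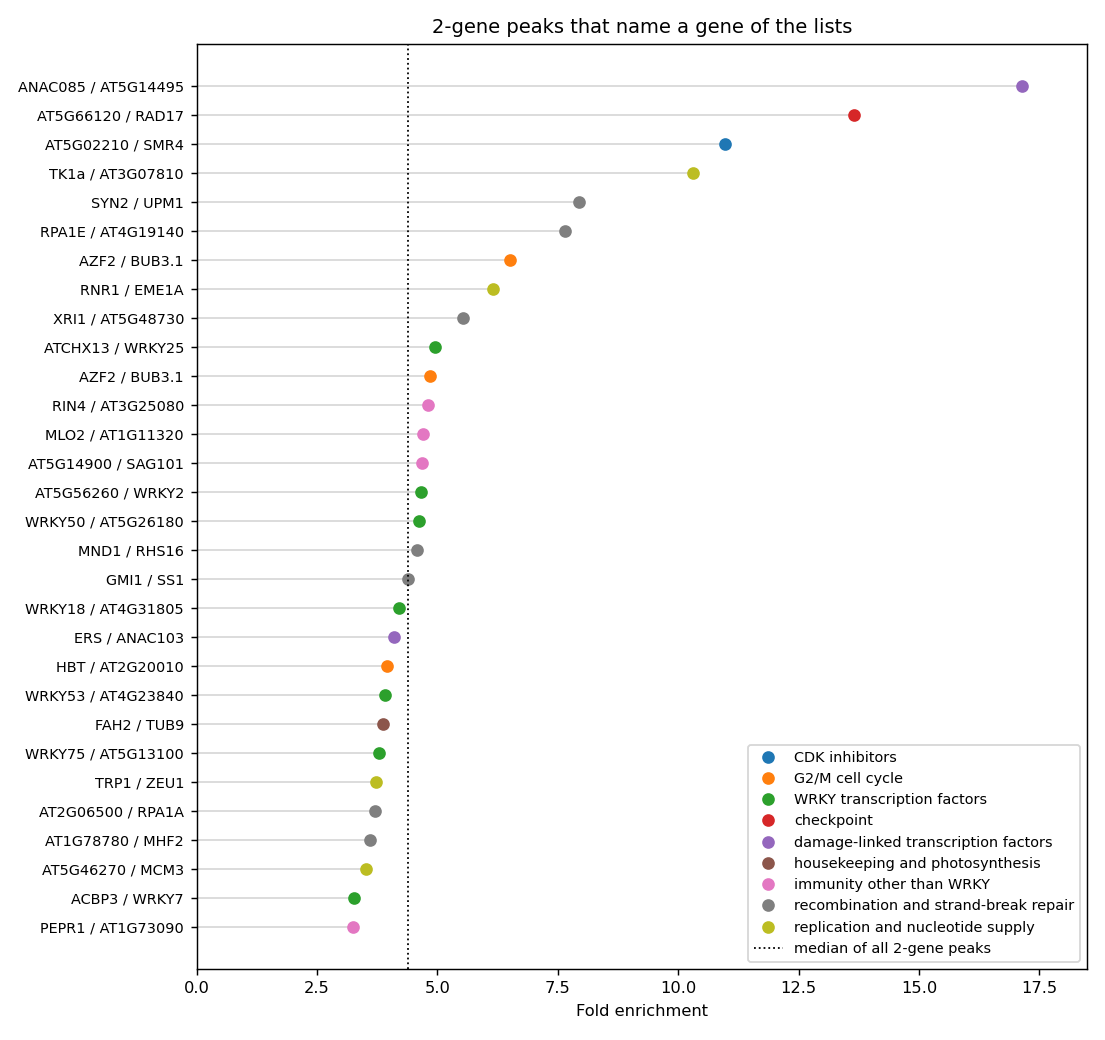
Fold enrichment of 30 of the 31 peaks with 2 genes that name a gene of the lists, 1 line per peak and coloured by list (RNR1 / EME1A carries the colour of RNR1's list); the dotted line is the median of all 302 peaks, 4.39. ANAC085, RAD17, SMR4 and TK1a stand above 10-fold, whereas the 7 WRKY genes run from 3.27 to 4.95.

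The genes of a pair were usually neighbours. Assignment of both genes to the same peak favours this, so the shares describe the pairs and test nothing. Of the 293 peaks with both loci in the gene table, 183 (62.5%; exact 95% binomial interval 56.6 to 68.0) had no other locus between the pair. Another 76 (25.9%) had 1 locus between, 28 had 2 and 6 had 3 or more. Both genes coded for protein at 263 peaks (87.1%). When only coding loci were counted, 203 of these (77.2%) had none between, 54 had 1 and 6 had 2 or more. The strand of the genes was not used, so divergent, convergent and tandem pairs were not told apart.

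Fold enrichment differed little with this spacing. Its median was 4.44 for direct neighbours, 4.19 with 1 locus between and 4.57 with 2 or more. Median length was 854 bp, 846 bp and 813.5 bp in the same order. ARF2, an auxin response factor, and AT5G61990 had the widest spacing, with 5 loci between them at 4.51-fold. In all, 151 loci of the gene table lay between the genes of pairs without being named there, 73 of them protein-coding. Whether the gene set the authors used held each of these loci is unknown. Of the 73, 6 were named at another peak, beside 1368 of all 27432 protein-coding loci named at any peak. These 73 loci were thus not named less often than the background. The single list gene among the 151 was RAD17. It lies between AT5G66120 and PAD2 (AT5G66140), a proteasome subunit, which were named without it at a pair of peaks of 4.44-fold and 4.12-fold, about 2 kb beyond the 13.7-fold peak that does name it.

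**Figure D4:**
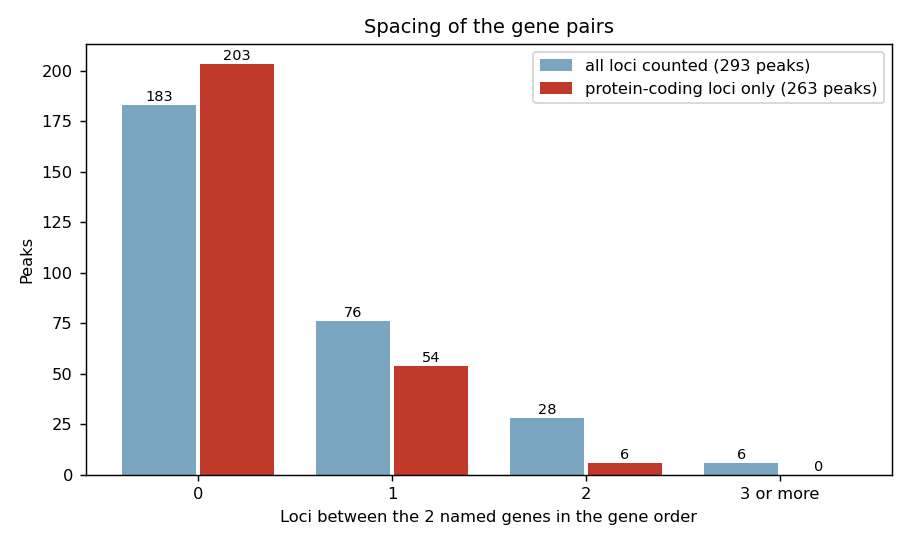
Number of peaks with 2 genes by the number of loci that lie between the named genes in the gene order, counting all loci (293 peaks) or only protein-coding loci (263 peaks). Direct neighbours are the most frequent in both counts, 183 and 203 peaks.

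At 39 peaks the pair was not made of 2 protein-coding genes of the table. A tRNA gene was named at 7 peaks, a pseudogene at 18, another non-coding RNA at 5 and a locus missing from the table at 9. The median fold of the 39 was 4.48, beside 4.39 for the 263. After ANAC085, the highest tRNA pair was that of DWF4 (AT3G50660), a rate-limiting enzyme of brassinosteroid synthesis, at 6.66-fold from 65 reads. NAC097 and AT5G50805 had 5.26-fold, and CK1, a choline kinase, and AT1G71700 had 4.13-fold. Neither gene had a symbol at 79 of the 302 peaks (26.2%), so the function of many pairs is not described here.

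Relatedness within a pair was read only from gene symbols, so pairs without symbols were not scored. Both genes shared a family name at 5 peaks, each of these below the median of 4.39-fold. The sulfate transporters SULTR1;2 and AST56 shared 4.09-fold from 46 reads, and AOC1 and AOC2, allene oxide cyclases of jasmonate synthesis, 4.07-fold from 84. The pectin methylesterases PME1 and PME2 shared 3.55-fold from 70 reads, and NHL1 and NHL2, relatives of the defence protein NDR1, 3.14-fold from 59. The calmodulin CAM2 and its relative TCH3 shared 3.01-fold from 136 reads over 1535 bp. Words in the gene names marked 26 of the 586 loci as transcription factors (4.44%), beside 4.53% of loci named only at other peaks. Their median was 4.24-fold. The words missed transcription factors such as GRF9, RAV2 and BES1, so the shares count words and not all such genes. Another 6 were marked as DNA repair or replication genes (1.02%, beside 0.647%), with a median of 7.48-fold. The words missed list genes such as XRI1, MND1 and MCM3, and the recombination list alone had 9 members at pairs, with a median of 5.53-fold. None of the words searched was held by 468 loci.

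Some pairs lay beside more than 1 peak. Of the 586 loci, 47 were named at several peaks, 45 of them at 2 and AT5G66120 and EXL2 at 3. The same pair was named at 2 peaks in 5 cases. ERF4 and AT3G15200 had 5.12-fold with 112 reads and 5.05-fold with 224 reads, with summits 2736 bp apart. The zinc finger gene AZF2 (AT3G19580) and BUB3.1 had 4.85-fold and 6.50-fold, 111 and 154 reads, with summits 1668 bp apart. SHV3 and the fimbrin FIM1 had 3.97-fold and 4.75-fold, and ML1 (AT5G61960) and AT5G61970 had 4.11-fold and 6.10-fold. PAD2 and AT5G66120 were the fifth, with only 121 bp between their peaks. The peaks of a pair thus had similar fold values at ERF4 and PAD2, and the peak further along the chromosome was the higher at AZF2, SHV3 and ML1 and the lower at PAD2 and ERF4.

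The widest contrast in fold between peaks that share a locus was 3.49 times, between pair peaks of AT1G49980. It was named at 11.6-fold with CLPR1 and at 3.33-fold with AT1G49990. Of 11 combinations of a pair peak with a peak of 3 or more genes that shared a locus, the pair peak was the lower in 9 and the higher in 2. Beside a peak with 1 gene it was the higher in 8 of 11. These combinations share peaks and loci and were not tested. XRI1 and AT5G48730 were named, with AT5G48710, at a 15.7-fold peak of 257 reads and 1333 bp, and alone at the 5.53-fold peak of 286 reads and 2355 bp next to it. AT2G18180 and AT2G18190 had 5.55-fold and 126 reads beside a 16.3-fold peak of 506 reads that also named AT2G18193. EXL2 had 6.02-fold, 4.56-fold and 3.60-fold along the chromosome, the middle peak naming 3 genes. The pair peak was the higher at WRKY2, with 4.65-fold beside 3.40-fold, and at the first EXL2 peak.

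**Figure D5:**
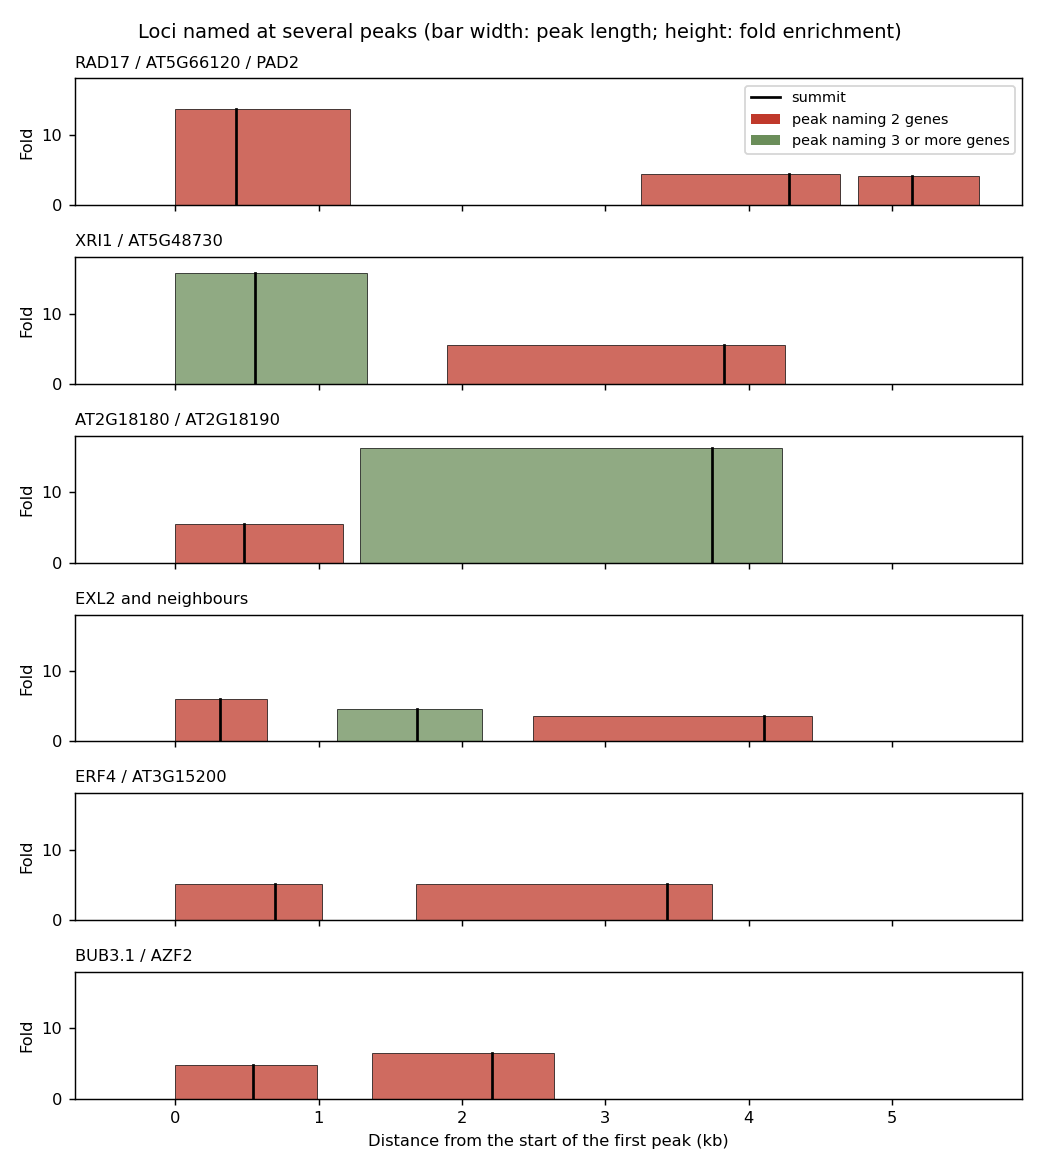
Fold enrichment (height, linear axis from 0) and extent (width, distance in kb from the start of the first peak) of peaks at 6 sets of loci named at several peaks, with the summit as a black line; red bars are peaks with 2 genes and green bars peaks with 3 or more. The strong peaks of XRI1 (15.7-fold) and AT2G18180 (16.3-fold) name 3 genes and stand beside weaker pair peaks, whereas at RAD17 the 13.7-fold peak is itself a pair.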

How the data were processed

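The peaks of the tagged, zeocin-treated library were analysed from 1 list. Per the submitters' processing notes, the build was TAIR10 and CASAVA 1.8.2 was used. No source used here gives the aligner, peak caller, control, thresholds or gene assignment rule, although the list's title carries a tag of 5 kb. Per the file headers, the authors deposited for each peak a count of reads (not scaled), a fold enrichment (a ratio), a Decibel Score (a score with no formula given) and an FDR. The FDR was read as a rate over the peaks with at least the same score and was not used for selection. The treatment text of the untagged sample names zeocin and its label mock; the label was followed.

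The 1645 lines were collapsed to 778 peaks. Length was end minus start plus 1 at 190 of the 302 pair peaks and 1 less at 112, so edges are uncertain by 1 bp. Gene names, classes and order came from a gene table of assembly TAIR10.1, which held 578 of the 586 loci by locus tag; none of its positions is printed. SMR4, SAUR69, RPA1E, MHF2, AZF2 and H3.3 are names in common use for loci the table lists otherwise.

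Medians, quartiles and exact (Clopper-Pearson) 95% binomial intervals were computed in Python 3.11.15 with pandas 2.3.3 and scipy 1.17.1, and plots with matplotlib 3.10.9. The counting was checked on simulated peak lists. Named pairs are the 12 highest by fold, those with a list gene, those sharing a family name or keyword class, the extremes of reads (5), length, summit position and fold (3 each), and pairs named at several peaks; others were chosen after their values were seen. The members and lists were chosen with earlier results of these data known, and list members were written with the peak list in view. The peak of 1 list member is counted but not reported here. Alternatives were the counting of unique loci in place of rows or of protein-coding loci only, stricter peaks, classes of length and another gene order.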

Additional observations from a re-analysis of the deposited data

How the results depend on the processing

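Of 35 recomputed values, 25 were counted as the same as the main value and 10 as moved, none of the latter in the share of pairs with a list gene. Counting unique loci in place of rows could not move any value, because each peak named as many loci as rows. The number of pairs has no interval, and its 306 with protein-coding loci only, against 302, was counted as the same. Restricting the list to its 389 strongest peaks by fold enrichment left 155 pairs, with medians of 82 reads and 5.18-fold against 75.5 and 4.39. The stronger peaks by score left 151 pairs, with medians of 105 reads, 1023 bp (against 840) and 4.95-fold. Both alternatives select on the values they then summarise. Peaks of 761 to 976 bp left 92 pairs; of the 88 with both loci in the gene table, 55.7% were direct neighbours, against 62.5% of 293. Counting the order of protein-coding loci only raised that share to 77.2%. No paired analysis was possible because each group has 1 library, and no replicate could be left out. The share of pairs with the SOG1 motif, and its alternatives, were not run, since no promoter sequence was used here. Total depth is unknown, and the list holds called peaks only, so weak binding below the authors' threshold cannot be described.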

Other observations

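Genes of several hormone pathways were among those named at pairs. These genes, and the telomere and corepressor genes below, were picked after their values were seen. Their counts and medians describe the picked genes only. No group was counted over the whole genome, so no share can be set beside the 1.99% of protein-coding loci named at pairs. For auxin, 11 loci at 12 pair peaks ran from 3.91-fold to 9.26-fold with a median of 5.12. SAUR69 led, the auxin carrier PIN8 (AT5G15100) had 7.03-fold from 66 reads with AT5G15120, and ARF2 had 6.75-fold and 4.51-fold at neighbouring peaks. The influx carrier LAX1 had 5.79-fold from 64 reads and GH3.3, which conjugates auxin to amino acids, 5.36-fold from 58. For gibberellin, the DELLA repressors RGA1 (6.71-fold, 63 reads) and GAI (4.61-fold, 59 reads) were in pairs. For jasmonate, the synthesis gene AOS had 5.45-fold, the AOC1 and AOC2 pair 4.07-fold and the repressor JAZ5 3.02-fold.

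For abscisic acid, AFP3, which binds a factor of its signalling, had 7.77-fold from 102 reads, the degrading enzyme CYP707A3 4.44-fold and the receptor PYR1 3.14-fold. For brassinosteroid, DWF4 had 6.66-fold and the transcription factors BES1 and BIM2 4.46-fold and 3.44-fold. For cytokinin, CRF6 had 5.49-fold, the synthesis gene IPT5 4.15-fold and the response regulator ARR6 2.95-fold. Outside SAUR69, the auxin pair peaks held 51 to 93 reads, around the median of 75.5.

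Genes named for telomeres stood at 3 pairs. TRFL10 (AT5G03780), a TRF-like protein, shared 8.88-fold and 165 reads over 1451 bp with the homeobox gene HB51. TERT (AT5G16850), the telomerase catalytic subunit, and AT5G16860 shared 4.63-fold from 53 reads. TRP1 and ZEU1 shared 3.72-fold from 73 reads. The corepressors TPL and TPR1 had 4.67-fold and 4.21-fold. A set of 8 zinc finger loci, also picked after their values were seen, stood at 9 pair peaks. These ran from 2.99-fold (STZ) to 6.50-fold (AZF2) with a median of 4.85. The set is not complete, since COL2 at 9.56-fold is not in it.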
